A study of Homo sapiens with 6 samples.

Results

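The cytosolic ribosomal protein genes code for the proteins of the large and small subunits of the cytosolic ribosome. They were taken as the protein-coding genes whose GENCODE 29 symbol has the RPL or RPS form of a ribosomal protein, together with RPLP0, RPLP1, RPLP2 and RPSA. This rule gave 84 of the 58174 genes in the files, 52 of the large and 32 of the small subunit. RNA of SiHa cells, an established line from a human cervical squamous cell carcinoma, was sequenced in 6 samples. The OV-BRCA1 group (3 samples) was transfected with the plasmid GV230-BRCA1, and the NC group (3 samples) with the empty GV230 vector, both with Lipofectamine and both for 48 h. BRCA1 is a DNA repair and tumor suppressor gene, and the comparison asked what changed in the cells when more of it was made. The expression came from a transient plasmid in 1 cell line, so a sample is a mixture of transfected and untransfected cells, and NC cells also carried plasmid and reagent. The study describes the 3 samples of a group as biological replicates.

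A ribosome holds 1 copy of nearly every ribosomal protein, and cells make these proteins in balanced amounts together with ribosomal RNA. Most ribosomal protein mRNAs start with a C followed by a run of pyrimidines, the terminal oligopyrimidine (TOP) tract, through which mTORC1 and LARP1 control their translation. Dividing cancer cells spend much of their mRNA on this gene family, and several members have additional roles, among them the binding of MDM2 by RPL5 and RPL11.

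BRCA1 was at 35.7, 40.8 and 34.9 FPKM (fragments per kilobase of transcript, scaled to the mapped fragments of the sample) in OV-BRCA1 replicates 1, 2 and 3, and at 20.1, 14.9 and 21.7 FPKM in NC replicates 1, 2 and 3. The values are summed over the transcripts of a gene, and a change is the difference in mean log2(FPKM + 1), OV-BRCA1 minus NC, ± its standard error (SE) from limma. The change of BRCA1 was 0.95 ± 0.14 (limma, adjusted p = 0.00373). KRT8, KRT17 and KRT18, keratins of epithelial cells, were high in every sample, whereas KRT5, a keratin of squamous epithelium, lay between 0 and 0.202 FPKM and E-cadherin (CDH1) between 0.170 and 0.896. PTPRC and LUM, markers of leukocytes and fibroblasts, were listed at 0 in all samples. Of the other markers of leukocytes, fibroblasts and endothelium, PECAM1 was at 0.629 to 1.45 FPKM and CD3E at 0.0587 to 0.233 FPKM, and the rest did not exceed 0.101 FPKM. Transcripts of the mitochondrial genome took 14.8% to 17.2% of all FPKM in the OV-BRCA1 samples and 21.0% to 23.2% in the NC samples. The part of this difference in the results below was not tested beyond a scaling to nuclear protein-coding genes. Fewer cells with an mRNA and less of it per cell cannot be told apart in such samples.

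The start sites of several members are shown because the TOP tract is the feature that most of them share and that the choice of genes did not use. In each line, 30 bases before the annotated start are followed by 20 bases from it, 5′ to 3′ on the strand of the gene, with the pyrimidine run that begins at the start in capitals. RPL13, RPLP2, RPL39 and RPL11 were among the members that were lower in OV-BRCA1 cells under every setting tried, and RPLP0 is the partner of RPLP2 in the ribosomal stalk. RPS28 and RPS4X were lower as well but had no tract at their annotated start, although in RPS28 a C-led run of pyrimidines began within 5 bases of it. RPS27 and RPS27L are a pair of paralogs, of which the abundant member had the tract and the scarce member did not. Of other less abundant paralogs, RPL22L1 had the tract, and RPL26L1, RPL7L1 and RPL10L did not.
RPL13: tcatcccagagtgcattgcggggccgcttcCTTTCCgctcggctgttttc
RPLP2: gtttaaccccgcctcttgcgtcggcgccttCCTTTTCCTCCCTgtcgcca
RPL39: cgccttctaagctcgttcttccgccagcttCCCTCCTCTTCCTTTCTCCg
RPL11: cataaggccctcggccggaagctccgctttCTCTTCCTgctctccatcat
RPLP0: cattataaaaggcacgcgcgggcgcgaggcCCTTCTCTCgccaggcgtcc
RPS28: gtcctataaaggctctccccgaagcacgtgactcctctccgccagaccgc
RPS4X: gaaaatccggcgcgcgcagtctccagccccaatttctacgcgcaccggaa
RPS27: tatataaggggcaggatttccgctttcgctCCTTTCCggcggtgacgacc
RPS27L: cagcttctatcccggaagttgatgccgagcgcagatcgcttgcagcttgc
These lines are from RefSeq (GRCh38.p14). They lie at chr16:89560652-89560701 (+) for RPL13, chr11:809937-809986 (+) for RPLP2, chrX:119791611-119791660 (-) for RPL39 and chr1:23691776-23691825 (+) for RPL11. The window of RPLP0 is chr12:120201092-120201141 (-), that of RPS28 chr19:8321466-8321515 (+), that of RPS4X chrX:72277229-72277278 (-), that of RPS27 chr1:153990732-153990781 (+) and that of RPS27L chr15:63157458-63157507 (-). RPL13 and RPL11 have further annotated starts without the tract.

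Of the 67 members with a RefSeq start, 47 (70.2%) had a C at an annotated start followed by pyrimidines, at least 5 in all, against 5.14% of 27305 symbols with such a window. With the C allowed within 5 bases of the start the shares were 80.6% and 25.2%. Other motifs were searched on both strands from 250 bases before to 50 bases after the start. CCGGAA, the core of the sites of ETS factors, was found in 58.2% of members and 20.1% of all symbols, and ATGGCG, contained in the sites of YY1, in 41.8% and 12.7%. TATAAA was found in 10.4% of members and 14.0% of all symbols, and the E-box CACGTG in 7.46% and 8.78%. The 47 members with the tract had a median change of -0.087, with 10 called lower (21.3%) and 3 called higher (6.38%), and the 19 tested members without it had a median of -0.094, with 3 called lower (15.8%) and 1 called higher (5.26%). Over all genes tested 18.9% were called lower and 16.4% higher. The medians of the members with and without a tract were thus close to each other, and a match describes the letters of the window only.

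Ribosomal protein mRNAs were abundant in both groups and as a family changed little. Gene sums of the tested members ranged from 2.44 to 1629 FPKM with a median of 313, compared with a median of 6.69 FPKM over all genes tested. RPL41, which codes for the smallest ribosomal protein, was highest, with 1731, 1631 and 1555 FPKM in the OV-BRCA1 replicates and 1645, 1554 and 1657 FPKM in the NC replicates. RPS2 followed with a mean of 1603 ± 37.0 (SD, n = 3) in OV-BRCA1 and 1367 ± 310 (SD, n = 3) in NC, and RPL35 with 1477 ± 73.4 and 1319 ± 42.2. The groups overlapped for RPL41 and RPS2 and did not overlap for RPL35. At the other end were the paralogs RPL3L, RPL22L1 and RPL7L1, of which RPL22L1 had 11.6 ± 1.65 and 11.1 ± 1.87 FPKM and RPL7L1 19.8 ± 1.30 and 17.4 ± 2.17 FPKM. RPL10L, a testis paralog of RPL10, was listed at 0 in 5 samples and at 0.00298 FPKM in OV-BRCA1 replicate 2, and it was the member that did not enter the test.

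The summed FPKM of all members was 31312, 29176 and 29893 in the OV-BRCA1 replicates and 31339, 31222 and 32362 in the NC replicates. The groups overlapped, and the log2 difference of -0.071 did not pass a two-sided exact permutation test over samples (p = 0.2), which cannot give a p below 0.1 with 3 samples against 3. As a share of the FPKM of nuclear protein-coding genes, the members took 8.25% ± 0.185 (SD, n = 3) in OV-BRCA1 and 8.91% ± 0.148 in NC, with no overlap between the groups (exact permutation p = 0.1). As a share of all FPKM, mitochondrial transcripts included, they took 6.56% ± 0.250 and 6.55% ± 0.199 (exact permutation p = 1). The share of the family was thus lower in OV-BRCA1 cells when mitochondrial transcripts were left out of the total and nearly equal when they were part of it. The ratio of large to small subunit FPKM was 1.58, 1.63 and 1.64 in the OV-BRCA1 replicates and 1.55, 1.67 and 1.61 in the NC replicates, and these overlapped (exact permutation p = 1).

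Of the 83 members tested, 54 had a lower and 29 a higher mean in OV-BRCA1 cells. At an adjusted p below 0.05, 23 members were called (27.7%), compared with 35.3% of all 16321 genes tested. Of these members 15 were lower (18.1%, background 18.9%) and 8 were higher (9.64%, background 16.4%). The 8 became 3 (3.61%) without NC replicate 1 or 2 (background 13.3% and 13.1%). The count was 4 (4.82%) without NC replicate 3 or OV-BRCA1 replicate 1 or 3 (background 13.1%, 13.6% and 12.9%). With no filter on low values 2 were called higher (2.38%, background 7.28%), and after correction for GC and length 12 were (14.5%, background 15.4%). Scaled to nuclear protein-coding genes, 19 were called lower (22.9%, background 21.3%) and 4 higher (4.82%, background 14.5%). In FPKM as deposited, 32 of the 83 members (38.6%) had groups that did not overlap, compared with 50.8% of all genes. The median change was -0.087 for members and -0.036 for all genes, and the median absolute change was 0.12 for members and 0.26 for all genes. Without OV-BRCA1 replicate 2 the median change was -0.0446 for members and -0.0300 for all genes. Without OV-BRCA1 replicate 1 it was -0.0996 and -0.0344, and the other left-out samples gave member medians between these. With an absolute log2 change above 1 as well, the criterion of the study, RPL3L was the only member called higher and no member was called lower by limma, whereas RPS19 passed at an unadjusted p below 0.05. Over all genes 3.99% met this criterion. In the large subunit 8 of 51 members were called lower and 5 higher (median change -0.039), and in the small subunit 7 of 32 were called lower and 3 higher (median change -0.10). Member shifts were therefore small in both subunits, as the plot of fold changes by subunit shows.

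**Figure D1:**
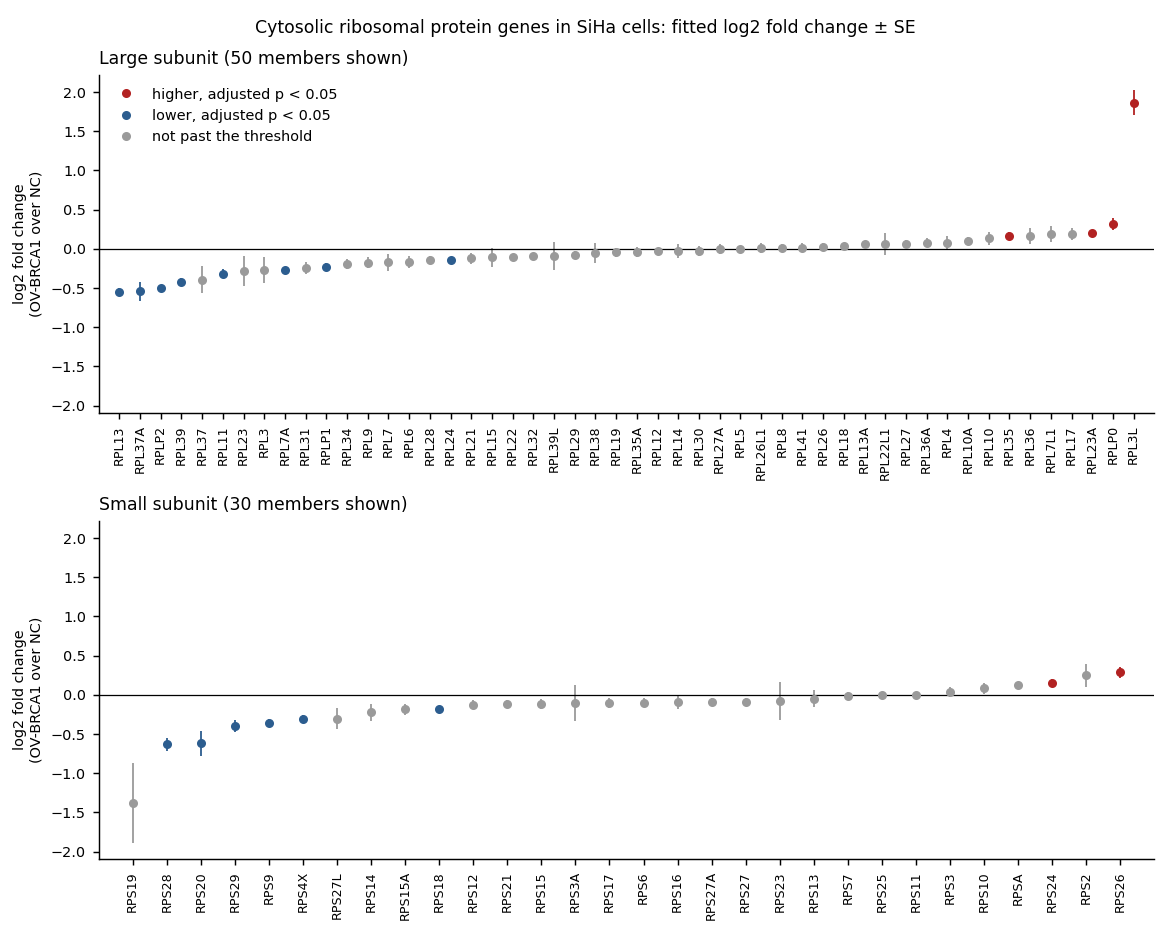
Fitted log2 fold change of 80 of the 83 tested ribosomal protein genes (vertical axis, OV-BRCA1 over NC) with its SE, ordered by value (horizontal axis) for 50 large subunit members (top) and 30 small subunit members (bottom). Blue points are the 14 of these called lower and red points the 6 called higher at an adjusted p below 0.05; RPL3L at 1.87 and RPS19 at -1.38 lie outside the range of the other members.

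Among the large subunit proteins, the stalk genes were called in different directions. The stalk is the arm of the large subunit that recruits translation factors, and it is built from RPLP0 as the base and RPLP1 and RPLP2 as its acidic partners. RPLP2 (ENSG00000177600, chr11:809647-812880, hg38) was at 227, 216 and 220.1 FPKM in the OV-BRCA1 replicates and at 303, 311 and 323 FPKM in the NC replicates. All OV-BRCA1 values lay below all NC values, with a change of -0.50 ± 0.043 (limma, adjusted p = 0.000425). RPLP0 (ENSG00000089157, chr12:120196686-120201235) was at 379, 318 and 335 FPKM in OV-BRCA1 and at 261, 276 and 290.0 FPKM in NC. Its groups were separate in the opposite direction, with a change of 0.32 ± 0.077 (limma, adjusted p = 0.0215). The call of RPLP0 was lost under 6 of 16 other settings, among them leaving out OV-BRCA1 replicate 3, NC replicate 1 or NC replicate 2, and with the most abundant transcript its change was -0.024 (limma, adjusted p = 0.821). The ratio of RPLP0 to RPLP2 FPKM was 1.67, 1.47 and 1.52 in OV-BRCA1 and 0.859, 0.886 and 0.899 in NC, and it did not overlap (exact permutation p = 0.1, the smallest possible). This follows from the opposite separation of both genes and is not separate evidence. RPLP1 was at 576, 563 and 531 FPKM against 667, 628 and 658 FPKM, a change of -0.23 ± 0.047 (limma, adjusted p = 0.0126). In its 2 most abundant transcripts the difference was in RPLP1-203, a retained intron form, with 130, 225 and 84.5 FPKM against 290, 261 and 269 FPKM, while the coding RPLP1-201 was at 416, 311 and 415 against 352, 335 and 361 FPKM. With protein-coding transcripts alone the change of RPLP1 was 0.11 and did not pass the test. RPLP2 overlaps PIDD1 on the opposite strand, which was lower as well (change -0.75), and whether the counting used strand is not stated.

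RPL5 and RPL11 bind 5S rRNA as one particle, which also binds MDM2 when it is not built into ribosomes. RPL11 (ENSG00000142676, chr1:23691742-23696835) was at 429, 388 and 396 FPKM in OV-BRCA1 and at 479, 504 and 527 FPKM in NC. RPL5 was at 363, 364 and 357 FPKM in OV-BRCA1 and at 350, 362 and 374 FPKM in NC. RPL11 was lower in every OV-BRCA1 sample with a change of -0.32 ± 0.057 (limma, adjusted p = 0.00755), whereas the groups overlapped for RPL5 (change -0.00043 ± 0.041).

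RPL13 (ENSG00000167526, chr16:89560657-89566828) was the large subunit member with the lowest change. Its gene sum was 411, 373 and 397 FPKM in OV-BRCA1 and 586, 565 and 574 FPKM in NC, a change of -0.55 ± 0.048 (limma, adjusted p = 0.000457). The samples of a group were close to each other and the groups lay far apart. The fall was seen in coding transcripts, for example RPL13-214 with 106, 90.2 and 94.2 FPKM against 143, 146 and 133 FPKM. The groups overlapped for the coding RPL13-202 and RPL13-211. Of the retained intron forms, RPL13-203 was at 11.1, 9.56 and 9.77 against 15.4, 25.0 and 29.1 FPKM. The more abundant RPL13-207 overlapped, at 81.3, 68.9 and 67.5 against 114, 77.8 and 93.2 FPKM, and RPL13-212 did not fall. The processed pseudogene RPL13P12, whose reads could be shared with RPL13, was at 29.3 to 31.1 FPKM in OV-BRCA1 and 35.5 to 44.1 FPKM in NC.

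RPL39, RPL23A and RPL35 are proteins at the exit tunnel, through which the new peptide leaves. RPL39 (ENSG00000198918, chrX:119786504-119791643), a short protein in the tunnel wall, was at 738, 731 and 726 FPKM in OV-BRCA1 and at 927, 986 and 1027 FPKM in NC. RPL23A (ENSG00000198242, chr17:28719393-28724359) and RPL35 sit at the tunnel's mouth. RPL23A was at 391, 392 and 393 FPKM against 338, 345 and 342 FPKM, and RPL35 at 1541, 1397 and 1494 FPKM against 1271, 1346 and 1341 FPKM. RPL39 was lower (change -0.42 ± 0.047, limma, adjusted p = 0.0012), and RPL23A (0.20 ± 0.034, limma, adjusted p = 0.00616) and RPL35 (0.16 ± 0.050, limma, adjusted p = 0.0482) were higher. The call of RPL35 was lost under 8 of 16 other settings, among them leaving out any sample except OV-BRCA1 replicate 2, with a highest adjusted p of 0.193. Pseudogenes held 15.3% of the FPKM of RPL23A and its pseudogenes together, so its reads may have been split between copies.

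RPL37A, RPL7A and RPL24 of the large subunit were lower as well. RPL37A, a zinc finger protein, was at 108, 104 and 116 FPKM in OV-BRCA1 and at 131, 173 and 177 FPKM in NC (change -0.54 ± 0.12, limma, adjusted p = 0.0166). This call was lost without OV-BRCA1 replicate 2, NC replicate 2 or NC replicate 3, with a highest adjusted p of 0.054. RPL7A (change -0.27) and RPL24 (change -0.14) had smaller differences, again with separate groups. The call of RPL24 was lost under 12 of 16 other settings, leaving out any of the 6 samples included, with a highest adjusted p of 0.776. RPL13A, a subunit known to leave the ribosome during the interferon response, did not pass the test (change 0.057 ± 0.041), nor did RPL10, one of the last proteins to join the large subunit (0.14 ± 0.083).

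Among the small subunit proteins, RPS28, RPS20 and RPS29 had the lowest changes of those past the threshold. RPS28 (ENSG00000233927, chr19:8321158-8323340), which lies at the mRNA exit channel, was at 60.3, 53.7 and 61.7 FPKM in OV-BRCA1 and at 82.4, 95.3 and 96.7 FPKM in NC. Its change was -0.63 ± 0.085 (limma, adjusted p = 0.00243). The pseudogene RPS28P7, which spans 210 bases at chr11:82689559-82689768, had 323, 324 and 289 FPKM in OV-BRCA1 and 352, 281 and 308 FPKM in NC. Pseudogenes held 80.7% of the FPKM of RPS28 and its pseudogenes, and with these added to RPS28 the change was -0.13 (limma, adjusted p = 0.180). FPKM gives reads on a short copy more weight. In fragments per 1 M, a scale chosen after seeing the data, RPS28 was at 79.1, 70.7 and 81.2 in OV-BRCA1 and at 108, 125 and 127 in NC, and RPS28P7 at 67.9, 67.9 and 60.8 against 73.9, 59.1 and 64.7. Summed over RPS28 and its pseudogenes these fragments were lower in every OV-BRCA1 sample, with a log2 difference of -0.39 (exact permutation p = 0.1, the smallest possible). The sum over the copies was thus lower per fragment, whereas its change in FPKM did not pass the test. RPL9 was the other member with more than 50% of this sum in pseudogenes (58.8%), and over all members pseudogenes held 4.85% in OV-BRCA1 and 4.72% in NC.

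RPS20 (ENSG00000008988, chr8:56067295-56074581), a protein of the small subunit's head, was at 167, 148 and 131 FPKM in OV-BRCA1 and at 225, 189 and 279 FPKM in NC. The groups were separate but the NC samples were spread widely, and the change was -0.62 ± 0.16 (limma, adjusted p = 0.0241). The call was lost under 7 of 16 other settings, among them leaving out OV-BRCA1 replicate 2 or 3 or NC replicate 1, and the adjusted p rose to 0.471 at most. RPS29 (ENSG00000213741, chr14:49570984-49599164), a zinc-binding protein of the head, was at 312, 264 and 303 FPKM against 371, 372 and 413 FPKM (change -0.40 ± 0.078, limma, adjusted p = 0.0102). RN7SL1, the RNA of the signal recognition particle, overlaps RPS29 on the opposite strand, and it rose from 16.0 to 23.4 FPKM in NC to 154 to 204 FPKM in OV-BRCA1 (change 3.14). Its part in the value of RPS29 was not tested.

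RPS4X, RPS9 and RPS18 were also called lower. RPS4X (ENSG00000198034, chrX:72255679-72277300) was at 460, 432 and 455 FPKM in OV-BRCA1 and at 545, 543 and 578 FPKM in NC (change -0.31 ± 0.046, limma, adjusted p = 0.00364). RPS9, which lies near the mRNA entry and affects decoding accuracy, was at 308, 295 and 283 FPKM against 380, 364 and 388 FPKM (change -0.35 ± 0.049, limma, adjusted p = 0.00275). RPS18 (change -0.19) had separate groups with a smaller difference, and its call was lost under 8 of 16 other settings, among them leaving out OV-BRCA1 or NC replicate 2 or 3, with a highest adjusted p of 0.0795.

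RPS26 and RPS24 of the small subunit were called higher. RPS26 (ENSG00000197728, chr12:56041351-56044697), which contacts mRNA at the exit channel and is mutated in Diamond-Blackfan anemia, was at 192, 218 and 184 FPKM in OV-BRCA1 and at 159, 168 and 159 FPKM in NC (change 0.29 ± 0.071, limma, adjusted p = 0.0232). The call of RPS26 was lost under 5 of 16 other settings, among them leaving out NC replicate 1 or 3, with a highest adjusted p of 0.0747. RPS24 had a change of 0.15 ± 0.044 (limma, adjusted p = 0.0362). This call was lost under 10 settings, among them leaving out any sample except OV-BRCA1 replicate 2, and with the most abundant transcript the change was -0.011 (limma, adjusted p = 0.960). The gene sums of members with large called changes are shown in the plot of FPKM by sample.

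**Figure D2:**
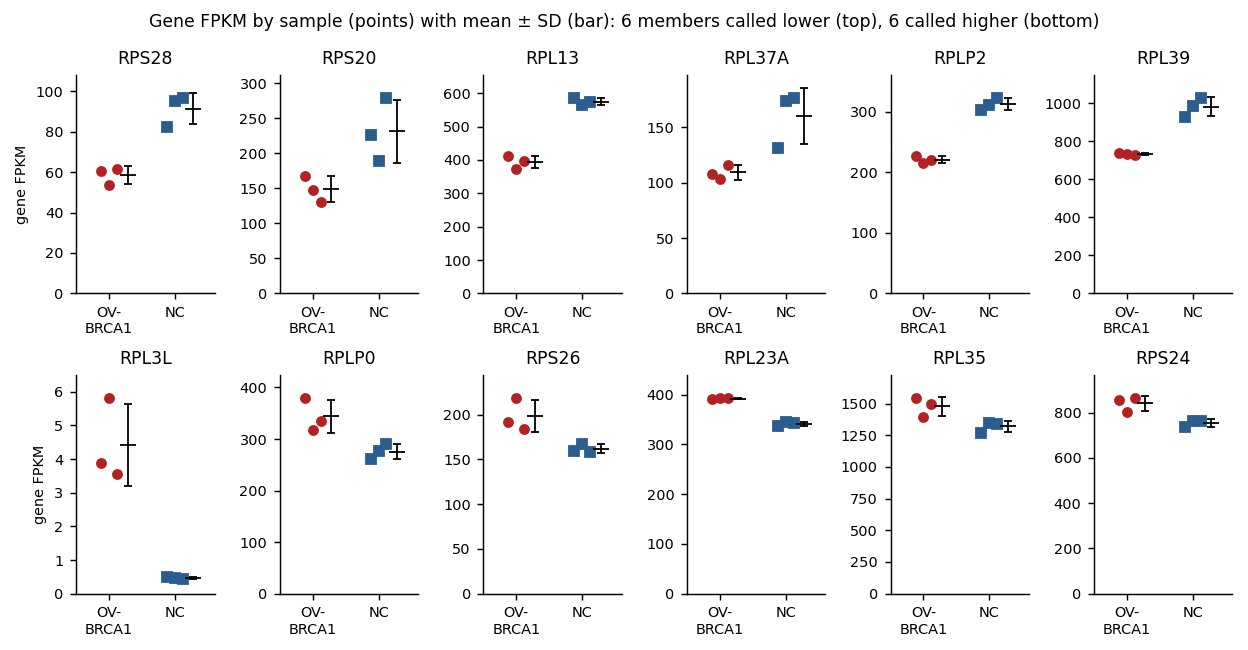
Gene FPKM (vertical axes, linear from 0, one scale per gene) in each OV-BRCA1 sample (red circles) and NC sample (blue squares) with mean ± SD (black), for 6 members called lower (top) and 6 called higher (bottom). The groups are separate in every panel, widely so for RPL13 (373 to 411 against 565 to 586 FPKM) and narrowly for RPS20 (131 to 167 against 189 to 279 FPKM).

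Several small subunit members with roles outside the ribosome did not pass the test. RPS6, the substrate of the S6 kinases, was at 481, 435 and 479 FPKM in OV-BRCA1 and at 488, 519 and 487 FPKM in NC (change -0.099 ± 0.056, limma, adjusted p = 0.214). RPS3, which also takes part in DNA repair, had a change of 0.038 ± 0.068, and RPSA, also known as the laminin receptor, one of 0.12 ± 0.043 (limma, adjusted p = 0.0696). RPS27A, made as a fusion with ubiquitin, had a change of -0.090 ± 0.046. The groups did not overlap for RPSA, RPS6 and RPS27A, a pattern that 50.8% of all tested genes had.

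RPL3L (ENSG00000140986, chr16:1943974-1957606) had the largest change of the family, at a very low level. It codes for the paralog of RPL3, a protein near the peptidyl transferase center, that heart and skeletal muscle use. It was at 3.88, 5.81 and 3.55 FPKM in OV-BRCA1 and at 0.489, 0.452 and 0.440 FPKM in NC. The OV-BRCA1 mean was 9.59 times the NC mean, and the change on the log2(FPKM + 1) scale, which understates differences of low genes, was 1.87 ± 0.16 (limma, adjusted p = 0.000435). RPL3L entered the test through the OV-BRCA1 samples alone, since all NC values lay under the filter of 0.5 FPKM. By the depth estimated for each sample, the NC values stand for about 12.5 to 19.6 fragments and the OV-BRCA1 values for about 61.6 to 111 fragments. The rise was seen in the coding transcript RPL3L-201, with 2.09, 2.09 and 1.42 FPKM against 0.422, 0.250 and 0.440 FPKM, and in the noncoding RPL3L-203, with 1.79, 1.96 and 2.13 FPKM against 0.0674, 0.201 and 0 FPKM. With no filter on low values the adjusted p was 0.00243 (limma).

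Of 6 pairs of paralogs, the share of the minor form did not overlap between the groups in 2, where 50.8% of all tested genes had groups that did not overlap, and none passed the test. RPL3L made up 1.05%, 2.06% and 1.25% of RPL3 and RPL3L together in the OV-BRCA1 replicates and 0.118%, 0.151% and 0.109% in the NC replicates. RPL7L1 made up 7.70%, 9.11% and 8.90% of RPL7 and RPL7L1 in OV-BRCA1 and 7.13%, 6.73% and 6.41% in NC. Both shares were higher in every OV-BRCA1 sample, with the smallest p that 3 against 3 samples allow (exact permutation p = 0.1, 0.3 after adjustment over the 6 pairs). The shares of RPL22L1 (8.71% ± 1.27 against 7.81% ± 1.13), RPS27L (2.54% ± 0.130 against 2.99% ± 0.491), RPL39L (3.17% ± 0.539 against 2.57% ± 0.578) and RPL26L1 (15.9% ± 1.17 against 16.0% ± 0.172) overlapped between the groups. RPL3 itself, with 365, 276 and 281 FPKM in OV-BRCA1 and 414, 299 and 402 FPKM in NC, did not pass the test.

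The files give values per transcript, and the members had 795 transcripts in all. Protein-coding transcripts held 81.7% ± 0.242 (SD, n = 3) of the member FPKM in OV-BRCA1 and 80.7% ± 0.891 in NC (exact permutation p = 0.2). Retained intron forms held 9.11% ± 0.338 and 9.03% ± 0.463, and forms annotated for nonsense-mediated decay 2.36% ± 0.296 and 2.79% ± 0.153. For 9 members the most abundant transcript was not annotated as protein-coding, RPLP0 and RPS14 among them. These shares of FPKM overlapped between the groups. Per fragment, protein-coding transcripts held 80.5% ± 0.127 in OV-BRCA1 and 79.2% ± 0.744 in NC, without overlap (exact permutation p = 0.1, the smallest possible).

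RPS19 (ENSG00000105372, chr19:41859918-41872926), the gene most often mutated in Diamond-Blackfan anemia, had the lowest change of the family, with transcripts of different length that varied between samples. Its gene sum was 480, 123 and 142 FPKM in OV-BRCA1 and 583, 412 and 620.3 FPKM in NC. OV-BRCA1 replicate 1 lay within the NC range and the other OV-BRCA1 samples far below it, so the change of -1.38 ± 0.51 did not pass the test (limma, adjusted p = 0.0822). Without OV-BRCA1 replicate 1 it was -1.99 (limma, adjusted p = 0.00235). The short transcript RPS19-201 (500 bases) was at 291, 28.5 and 18.4 FPKM in OV-BRCA1 and at 308, 331 and 390 FPKM in NC. The longer RPS19-206 (2359 bases) was at 37.9, 76.7 and 98.2 FPKM against 43.6, 46.4 and 44.1 FPKM. The other short form, RPS19-202 (526 bases), was at 137, 6.62 and 14.7 FPKM against 220.1, 24.5 and 176 FPKM. In OV-BRCA1 replicates 2 and 3 both short forms were low and the long form was higher than elsewhere, whereas in NC replicate 2 RPS19-202 alone was low and the long form was not raised. When FPKM was multiplied by transcript length before summing, which gives a value in proportion to fragments and was chosen after seeing these data, the change of RPS19 was -0.47 (limma, adjusted p = 0.0799).

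The same samples differed in RPS14 and RPL23. RPS14-204, annotated for nonsense-mediated decay, was at 161, 6.10 and 5.56 FPKM in OV-BRCA1 and at 162, 160 and 168 FPKM in NC, while the coding RPS14-201 was at 28.9, 67.2 and 79.6 FPKM against 18.8, 18.7 and 30.2 FPKM. RPL23-203 was at 79.6 FPKM in OV-BRCA1 replicate 1 and between 3.24 and 8.35 FPKM in the other 5 samples. OV-BRCA1 replicate 1 thus stood with the NC samples in RPS19 and RPS14 and apart from all samples in RPL23. The gene sums of RPS14 (change -0.22) and RPL23 (change -0.28) did not pass the test. Whether these differences lay in the cells or in how reads were divided between overlapping transcripts was not tested.

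**Figure D3:**
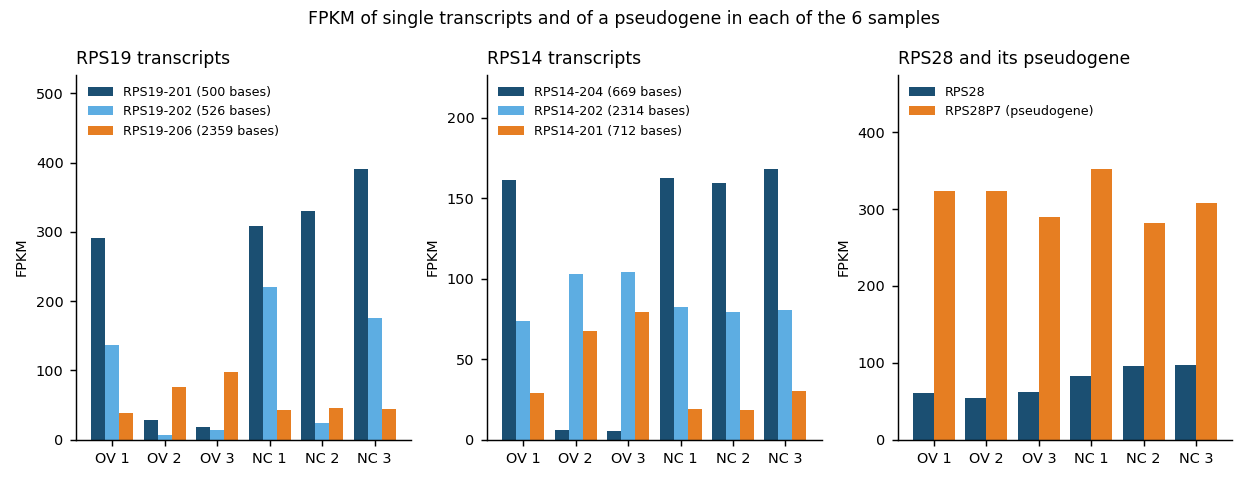
FPKM (vertical axes, linear from 0) in each of the 6 samples (horizontal axes, OV for OV-BRCA1) for transcripts of RPS19 (left) and RPS14 (middle), and for RPS28 with its pseudogene RPS28P7 (right). In OV-BRCA1 replicates 2 and 3, RPS19-201 falls to 28.5 and 18.4 FPKM and RPS14-204 to 6.10 and 5.56 FPKM while RPS19-206, RPS14-201 and RPS14-202 are higher than in the other samples, and the FPKM of RPS28P7 exceeds that of RPS28 in every sample.

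Among the other genes of ribosome production, many assembly factors were called higher. These factors process ribosomal RNA and build the subunits in the nucleolus. Of 52 listed and tested, 24 were called higher (46.2%, background 16.4%) and 2 lower (3.85%, background 18.9%), with a median change of 0.21. The helicase DDX21 was at 54.9, 55.9 and 54.0 FPKM in OV-BRCA1 and at 32.2, 32.5 and 32.6 FPKM in NC (change 0.74 ± 0.044, limma, adjusted p = 0.000101). GNL3, the GTPase nucleostemin, was at 76.7, 82.9 and 81.6 FPKM against 46.8, 47.8 and 45.4 FPKM (change 0.77 ± 0.051), and WDR43, of the small subunit processome, at 29.5, 27.6 and 28.4 FPKM against 15.5, 16.5 and 15.8 FPKM (change 0.80 ± 0.056). All 3 rose by more than any member except RPL3L. NOP2 and TSR2, a chaperone of RPS26, were the factors called lower. The call of NOP2 was lost under 5 of 16 other settings, among them leaving out NC replicate 2 or 3, with a highest adjusted p of 0.638 (limma). Over the other settings 17 to 29 assembly factors were called higher and 1 to 3 lower.

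Of 11 genes of RNA polymerase I and its factors, which transcribe ribosomal RNA, 6 were called higher (54.5%, background 16.4%) and 2 lower (18.2%, background 18.9%). The subunit gene POLR1B was at 12.8, 10.9 and 11.0 FPKM in OV-BRCA1 and at 4.75, 4.95 and 7.13 FPKM in NC (change 0.94 ± 0.15), and TAF1D of the initiation factor SL1 had a change of 0.54. UBTF, the activator that bends the ribosomal DNA promoter, was lower, at 14.9, 14.3 and 15.5 FPKM against 24.1, 24.5 and 25.8 FPKM (change -0.70 ± 0.059), as was TAF1C (change -0.72). With the most abundant transcript the calls of UBTF (limma, adjusted p = 0.486) and POLR1B were lost. Those of TAF1C (limma, adjusted p = 0.607), TAF1D (limma, adjusted p = 0.352) and POLR1B were lost with protein-coding transcripts. The count called higher was 5 when OV-BRCA1 replicate 2 was left out, 4 when NC replicate 2 was left out and 3 when any other sample was, with the replicate block or after correction for GC and length.

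Some ribosomal proteins go by other names. FAU, the fusion that yields RPS30, was at 92.7, 73.1 and 88.4 FPKM in OV-BRCA1 and at 101, 112 and 130 FPKM in NC (change -0.43 ± 0.12, limma, adjusted p = 0.0365). The call of FAU was lost under 9 of 16 other settings, among them the replicate block and leaving out OV-BRCA1 or NC replicate 2 or 3, with a highest adjusted p of 0.535. RACK1 and RPL36AL did not pass the test. Of 19 translation factors and other genes with TOP mRNAs, 5 passed (26.3%, background 35.3%): HNRNPA1, NACA and EEF1B2 were called lower and EIF2S3 and IPO5 higher (median change -0.037). The count called higher was 1 without OV-BRCA1 or NC replicate 3, 3 without OV-BRCA1 replicate 2, 4 without NC replicate 2 and 0 after correction for GC and length, and the count called lower was 1 to 2 when any sample was left out. The calls of NACA, EEF1B2 and IPO5 were lost under 12, 9 and 6 of 16 other settings. For IPO5 these included leaving out OV-BRCA1 replicate 1 or 3 or NC replicate 3, with a highest adjusted p of 0.635 (limma). Of 14 regulators around mTORC1, MYC and LARP1, 2 passed the test (14.3%, background 35.3%). These were TSC2 (change -0.58) and TSC1 (change -0.49), which together inhibit mTORC1, and both were lower. The call of TSC2 was lost with protein-coding transcripts (limma, adjusted p = 0.763). That of TSC1 was lost with the most abundant transcript (limma, adjusted p = 0.530). With median-of-ratios scaling 3 regulators were called higher as well. Of 11 ribosome quality control genes, 3 passed (27.3%, background 35.3%): PELO (0.75) and USP10 (0.76) were called higher and ZNF598 (-0.19) lower. The call of ZNF598 was lost under 11 of 16 other settings, among them leaving out any sample except NC replicate 3.

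The mitochondrial ribosomal proteins, coded in the nucleus by a separate gene family, were compared as another family of ribosomal proteins. Of 78 tested, 17 were called higher (21.8%, background 16.4%) and 8 lower (10.3%, background 18.9%), with a median change of 0.076. Over the other settings 12 to 21 were called higher and 4 to 10 lower. MRPS30 was at 78.3, 76.2 and 78.3 FPKM in OV-BRCA1 and at 44.8, 41.9 and 43.3 FPKM in NC (change 0.83 ± 0.046), and MRPL17 and MRPL49 had changes of 0.59 and 0.80. The difference between this median and that of the cytosolic family (-0.087) was not tested. Under both other scalings the medians of the cytosolic family stayed below 0 (-0.050 and -0.13) and those of the mitochondrial family above it (0.11 and 0.038), and those of the assembly factors were 0.24 and 0.17. After correction for GC and length the median of the cytosolic family was -0.035, against -0.042 for all genes.

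**Figure D4:**
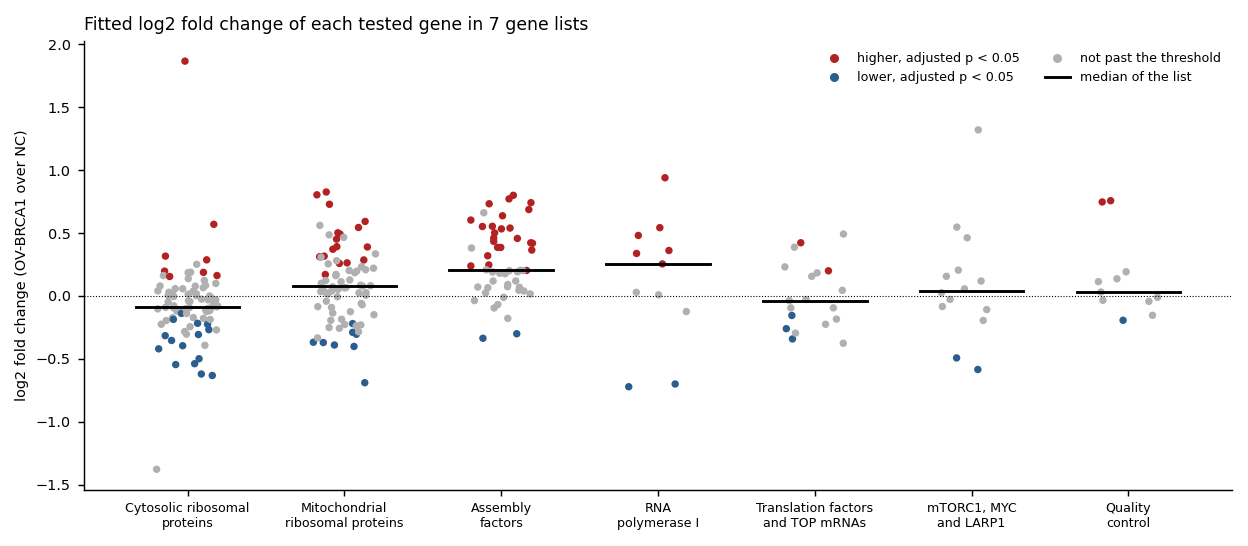
Fitted log2 fold change (vertical axis, OV-BRCA1 over NC) of each tested gene in 7 gene lists (horizontal axis), with red and blue points for genes called higher and lower at an adjusted p below 0.05 and a black bar at the median of each list. The 83 cytosolic ribosomal proteins have a median of -0.087, the 52 assembly factors one of 0.21 and the 78 mitochondrial ribosomal proteins one of 0.076; horizontal scatter within a list has no meaning.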

How the data were processed

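mRNA of 6 samples was sequenced, and samples were grouped and numbered by their labels. The authors removed reads with adapters, unknown bases or low quality and deposited FPKM per transcript, with no counts. The submitters' processing notes name FastQC, HISAT2 and hg38; the quantification tool, annotation and use of strand are not given in the sources used here. Transcript FPKM (199167 transcripts, 198868 of them in GENCODE 29) were summed per gene. The 16321 genes that reached 0.5 FPKM in 3 or more samples were fitted on log2(FPKM + 1) with limma 3.58.1 (trend, two-sided, R 4.3.3) and adjusted by Benjamini-Hochberg over all of them. limma took the place of the count test, which FPKM do not allow. Single values were compared by exact permutation over samples. p-values measure the spread between these samples. Depth, estimated from the spacing of low FPKM values, was 14.4 to 20.4 M fragments; 31.6% to 35.9% of the low values lay within 0.1 of a whole fragment, so reads were not recovered. The scripts were tested on simulated data.

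The members and lists were chosen with earlier results of these data known. By rule, the text named the called members past the fold criterion, the 6 largest called rises and falls, paralog pairs, members with set roles and the 3 highest and lowest; RPS19, RPS29, RPS9, RPS4X, RPL7A, RPS18, RPL24, RPS24, RPS14, RPL23, RPL9, RACK1, NACA, EEF1B2, NOP2, TSR2, TAF1C and the overlapping genes and pseudogenes were named after their values were seen. Some genes that the rule or the lists took are counted but not reported singly here. Lists were written from general knowledge. Alternatives were a pseudocount of 0.1, no filter, the replicate block, each sample left out, 2 other scalings, the most abundant transcript, protein-coding transcripts, pseudogenes added, correction for GC and length, and fragments.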

Additional observations from a re-analysis of the deposited data

How the results depend on the processing

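The test rested on 3 samples a group and FPKM without counts, so small changes of single members were hard to call, and reads of members, pseudogenes and overlapping genes could be split in unknown ways. Of the 23 called members, 7 were called under all 16 alternatives, lower for RPL13, RPLP2, RPL39, RPS29, RPL11 and RPS4X and higher for RPL3L, which entered the filtered tests through the OV-BRCA1 samples alone. The count of members called higher was 8 (background 16.4%). It became 2 with no filter on low values (background 7.28%), 4 when scaled to nuclear protein-coding genes (14.5%) and 5 with protein-coding transcripts (15.0%). With median-of-ratios scaling (18.1%) or pseudogenes added (16.5%) it was 9. After correction for GC and length it was 12 (14.5% of members, 15.4% of all genes). When 1 sample was left out it was 3 to 8, with a background of 12.9% to 13.6%. It was 4 without OV-BRCA1 replicate 1 or 3 or NC replicate 3, and 3 without NC replicate 1 or 2. The count called lower was 15 and became 23 with fragments (27.7% of members), where 22.4% of all genes were called lower in place of 18.9%. With the fold criterion 0 to 1 members were lower when a sample was left out, the 1 being RPS19 without OV-BRCA1 replicate 1. Replicate numbers only name the samples, since deviations of same-numbered samples had correlations of -0.024, 0.025 and 0.014; with the replicate block 12 members were called lower and 3 higher, and 4595 of all genes in place of 5764. With no filter 4844 of 33326 genes were called, and with the most abundant transcript 3291.

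The median change of all members was -0.035 after correction for GC and length (all genes -0.042). That of large subunit members was 0.0088 with this correction, -0.0024 with median-of-ratios scaling, -0.079 scaled to nuclear protein-coding genes and -0.13 with the most abundant transcript. The log2 ratio of large to small subunit FPKM (0.0057) became -0.0067 with pseudogenes added, -0.047 with fragments, -0.0024 without RPL41 and -0.020 to 0.033 when a sample was left out. Of the members named singly, those whose change turned sign missed the threshold where they did. With the most abundant transcript these were RPL26L1 (-0.28), RPLP0 (-0.024), RPLP1 (0.11), RPS24 (-0.011) and RPSA (-0.042). With protein-coding transcripts they were RPL22L1 (-0.13), RPLP1 (0.11), RPS14 (0.52) and RPS3 (-0.0065). Scaled to nuclear protein-coding genes they were RPL26 (-0.010), RPL26L1 (-0.025), RPL41 (-0.022) and RPS3 (-0.0015). RPL5 was at 0.037 with median-of-ratios scaling, RPL26L1 at -0.064 with fragments and RPS3 at -0.040 after correction for GC and length. When a sample was left out, RPL22L1 ranged from -0.047 to 0.18, RPL26L1 from -0.045 to 0.046, RPL39L from -0.25 to 0.025, RPL41 from -0.023 to 0.054, RPL5 from -0.025 to 0.024 and RPS3 from -0.0074 to 0.11. The causes were not tested.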

Other observations

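Replicates of one group were close for most members, with a median coefficient of variation within a group of 4.64%, and for 8 members it was above 20% in at least 1 group. In RPS3A, the coding transcript RPS3A-210 (845 bases) was listed at 0 in all OV-BRCA1 samples and in NC replicate 1 and at 77.1 and 109 FPKM in NC replicates 2 and 3, while RPS3A-201 (934 bases) was at 188, 26.7 and 103 FPKM in the NC replicates. In RPS23, the retained intron form RPS23-203 was at 94.3 FPKM in NC replicate 2 and between 14.9 and 45.5 FPKM in the other 5 samples. RPS2-201 was at 1005 FPKM in NC replicate 1, within the OV-BRCA1 range of 983 to 1068 FPKM, and at 708 and 717 FPKM in NC replicates 2 and 3.

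Across the 83 tested members, the log2 change had a Pearson correlation of 0.10 with the GC content and 0.21 with the log2 length of the most abundant transcript, and -0.30 with log2 mean FPKM. RPL3L, the member with the lowest level and the highest change, was included, and without it these correlations were 0.03, 0.09 and 0.04, so that the relation with the level rested on RPL3L. Members share samples and are not independent, so these are descriptions. The processed pseudogene RPL9P9, at 138 to 141 FPKM in OV-BRCA1 and 154 to 176 FPKM in NC, had more FPKM than RPL9 itself, at 104 to 114 and 112 to 130 FPKM, and a change of -0.24 (limma, adjusted p = 0.0183).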
